A study of Mus musculus with 2 samples.

Results

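The 32 genes described here encode the basement membrane, the thin sheet of matrix beneath epithelium and endothelium and around muscle and fat cells, together with receptors that bind it. They were chosen by name, as collagen IV chains, laminin chains, nidogens, heparan sulphate proteoglycans, linked proteins and receptors, with earlier results of these data known. They were found on the arrays through the RefSeq accession of each probe. All 32 were present, with 46 probes, among 15495 genes measured on both arrays, and every one of the 46 probes was well above background on each array. RNA came from whole lung of a C57BL6/N group and of a transgenic group on the same background that overexpresses HSP27, the small heat shock protein whose gene is Hspb1. The labels give male sex and an age of 6 weeks for both. Bleomycin, which damages alveoli and leads to fibrosis, was instilled into the trachea of both groups at 1.25 mg/kg, and lungs were taken on day 14. There was 1 array per group and no array of untreated lung. The promoter and species of the transgene, and whether RNA came from a single animal or a pool, are not given in the sources used here.

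Collagen IV and laminin form separate networks in every basement membrane, and nidogens and perlecan link them. Collagen IV chains are encoded by gene pairs that lie head to head and are known to share promoters. Col4a1 and Col4a2 serve nearly all tissues, whereas the Col4a3, Col4a4 and Col4a5 chains form a specialised network in the kidney glomerulus and beneath the alveolar epithelium. Laminins consist of an alpha, a beta and a gamma chain and are bound by integrins and dystroglycan. Alveolar epithelium and capillary endothelium share a fused basement membrane, across which gas is exchanged.

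Values are log2 of the processed signal, scaled to each array's 75th percentile (1288 in the C57BL6/N lung and 1428 in the transgenic lung), and differences are the transgenic minus the C57BL6/N value. A gene is counted as higher or lower when it differed by at least 1.5-fold (0.58 on the log2 scale). By this rule 10.2% of all measured genes were higher and 8.35% lower. A single array per group gives no variation between mice and no p-value, so no difference below is shown to exceed that variation. Repeat spots gave the technical error: in probes with 10 spots, sorted by signal into 3 groups of 105, 1 spot against 1 spot varied with an SD of 0.17 (dim), 0.09 (intermediate) and 0.08 (bright). The arrays differed in more than the transgene. Hspb1 itself read 41040 and 53554, a difference of 0.24, on a mouse probe that may not report the transgene. Both samples were labelled male, yet Xist, the RNA of the inactive X chromosome, gave signals of 521 and 330 with its 2 probes in the C57BL6/N lung. In the transgenic lung neither Xist probe stood well above background. The Y-linked Ddx3y read 508 and 2437. Cardiac muscle transcripts were much higher on the transgenic array, in 10 of 10 measured markers, with 3 more well above background there alone, and with a summed signal of 5.07 against 41.4 times the 75th percentile. Fat cell transcripts were higher in 5 of 5, with 4 more on the transgenic array alone, and summed to 3.22 against 36.7. Basal airway cell markers were higher in 7 of 7 and summed to 3.39 against 7.55. The probes of Trp63, 1 of these markers, disagreed, at 3758 and 3563 (-0.23) and at 48.4 and 250 (2.22). Its brighter probe made up most of the C57BL6/N sum. Muscle, fat and basal epithelium have basement membranes of their own. Lung markers moved as well. Endothelial markers were lower in 9 of 15 and higher in 0, with summed signals of 361 against 214. Alveolar type 1 cell markers were lower in 5 of 11 and higher in 0, with 437 against 302. Fibroblast and myofibroblast markers were higher in 9 of 14 and lower in 0, with 165 against 268. Within that list Col1a1 was at 0.80, whereas Pdgfra (0.06) and Pdgfrb (0.09) were nearly level. No first marker of the lung lists was near background, as Pecam1 read 1791 and 1470, Ager 20211 and 15945, and Pdgfra 6396 and 7372. In whole lung, fewer cells of a type and less RNA per cell cannot be told apart. The part of these markers, and of the sex-linked transcripts, in the differences below was not tested.

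Most basement membrane genes, like most measured genes, differed by less than 1.5-fold between the arrays. Of the 32, 24 lay within 1.5-fold, 2 were higher in the transgenic lung and 6 were lower. The 8 genes past the threshold in either direction make up 25% of the 32, beside 18.5% of all measured genes. Because the 32 were chosen with earlier results of these data known, such shares describe the list and test nothing. Lower by any amount were 18 of 32, beside 54.1% of all genes. The higher share was 6.25%, beside 10.2% of all 15495 measured genes, and the lower share was 18.8%, beside 8.35% of all genes. The higher genes were Lama1 and Itgb4, of which normexp background correction left 1, Lama1. The lower ones were Itga3, Col4a4, Itga6, Col4a5, Fras1 and Pxdn, of which the brightest probe per gene left 4, without Col4a4 and Pxdn. The median over the 32 genes was -0.09, beside -0.04 over all genes, and the median absolute difference was 0.27 in both sets. At 2-fold, Lama1 alone was higher and Itga3 alone was lower, beside 3.81% and 1.87% of all genes. After cyclic loess, which shifts the balance between directions, the shares of all genes were 12.5% and 6.27%, and the counts among the 32 stayed at 2 and 6.

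**Figure D1:**
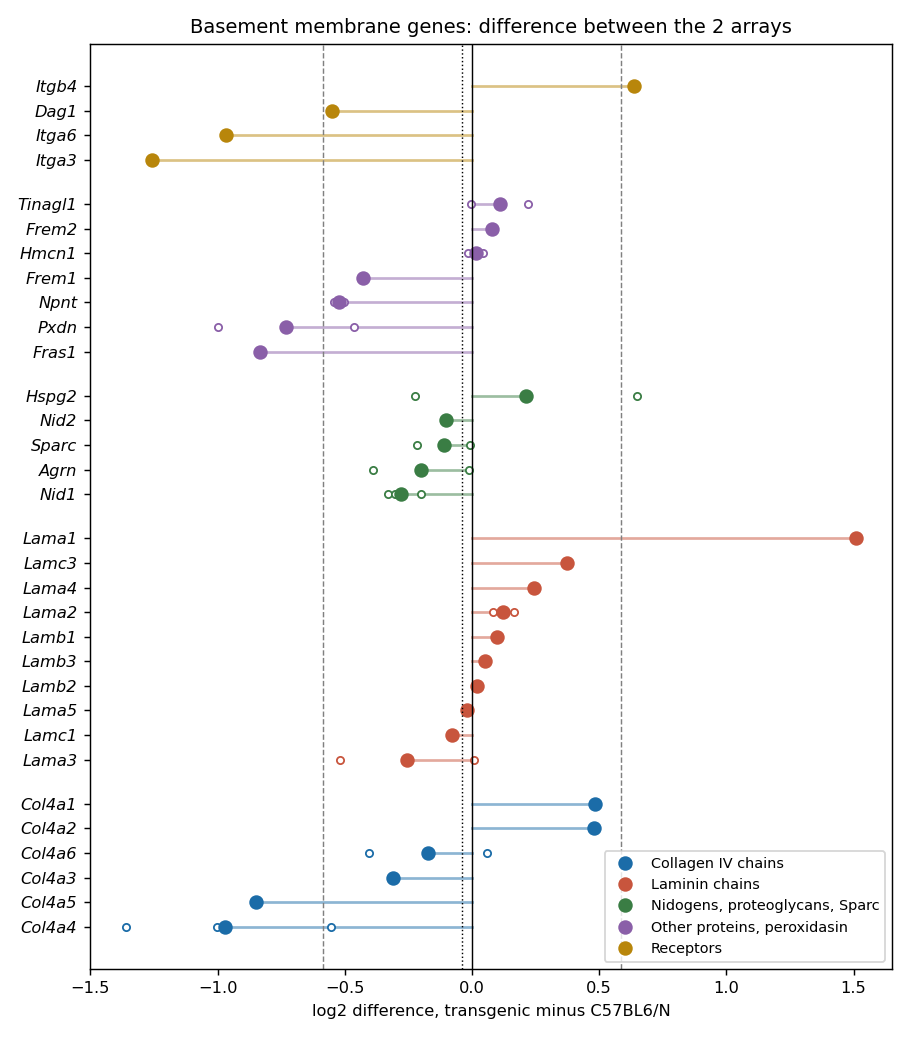
Log2 difference (transgenic minus C57BL6/N) of the 32 basement membrane genes, grouped by role, with 1 array per group. Filled points are gene values, open points are single probes where a gene has more than 1, dashed lines mark 1.5-fold and the dotted line marks the median of all measured genes (-0.04). Most laminins cluster near 0, whereas collagen IV chains and receptors spread to both sides.

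The collagen IV chains moved apart. Col4a1 and Col4a2 were each about 1.40-fold higher in the transgenic lung, short of the 1.5-fold threshold, while Col4a4 and Col4a5 were 1.96-fold and 1.80-fold lower. The Col4a1 probe was printed in 10 spots. Its signal ran from 15634 over a median of 16119 to 16970 on the C57BL6/N array, and from 23949 over 24631 to 26825 on the transgenic array. The spots of the 2 arrays did not overlap: the scaled log2 means were 3.65 ± 0.04 (SD, 10 spots) and 4.13 ± 0.06 (SD, 10 spots). These spots share the RNA of 1 sample each and are not replicates of a group. The difference was 0.48. Col4a2, measured by 1 probe, read 16397 and 25378, a difference of 0.48 as well. The pair thus kept the same difference, apart by 0.0034, well inside the repeat-spot SD of 0.08.

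**Figure D2:**
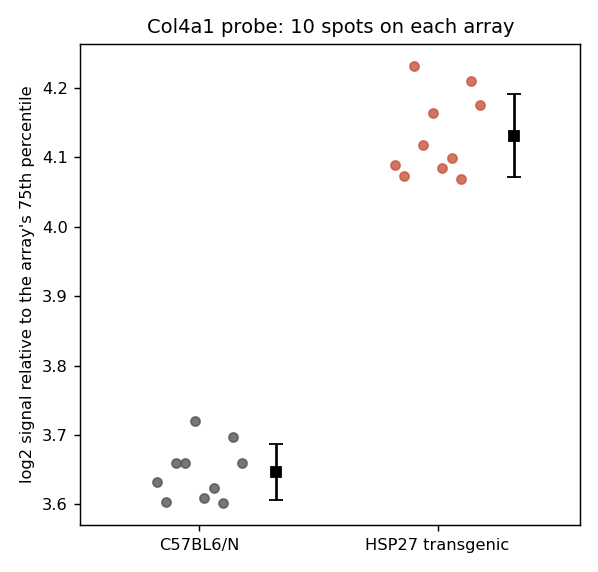
Scaled log2 signal of the 10 spots of the Col4a1 probe on each array. Points are spots and squares with bars are mean ± SD over spots (3.65 ± 0.04 and 4.13 ± 0.06). The spots of the arrays do not overlap, and the bars show technical spread only.

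The other collagen IV pairs were lower or near 0. Col4a3, a chain of the alveolar network, read 1733 in the C57BL6/N lung and 1549 in the transgenic lung, a difference of -0.31. Its neighbour Col4a4 was measured by 3 probes, which read 4157, 1590 and 511 in the C57BL6/N lung and 3137, 880 and 221 in the transgenic lung. All 3 were lower, from -0.56 at the brightest to -1.36 at the dimmest, with a mean of -0.97. The probes thus shared a direction but not a size, and the brightest alone did not reach 1.5-fold. Col4a5, on the X chromosome, read 8364 and 5150, a difference of -0.85. Its neighbour Col4a6 gave 1647 and 1381 at a bright probe (-0.40) and 83.3 and 96.3 at a dim probe (0.06), so its direction was not settled. Within the arrays, the ratio of Col4a1 to Col4a4 was 2.75-fold higher in the transgenic lung, and that of Col4a1 to Col4a5 was 2.52-fold higher. A constant shift of an array leaves such ratios as they are, while cyclic loess, quantile normalization and the choice of probe move them. The ratio of Col4a1 to Col4a4 was 2.06-fold higher with the brightest probe of each gene. All 3 alveolar chains lay within the range of the alveolar type 1 cell markers, which ran from -1.08 (Cav1) to 0.01 (Pdpn). The Pdpn probes disagreed, at 42998 and 38594 (-0.30) and at 725 and 1011 (0.33), and the next highest marker was Aqp5 (-0.22). With Pdpn, that wide range also holds the median of all genes (-0.04), and the part of these cells in the differences was not tested.

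The start regions of these pairs are shown because Col4a1 and Col4a2 differed by the same amount, whereas Col4a3 and Col4a4, and Col4a5 and Col4a6, were 0.66 and 0.68 apart. These gaps rest on means over probes that differed: with the brightest probe of each gene they were 0.24 and 0.45. In the RefSeq table (GRCm38.p6), 22 of the 32 genes had a promoter window, Col4a3 not among them. The start sites of Col4a1 (minus strand) and Col4a2 (plus strand) lie 21 bases apart, with overlapping 5′ ends, and those of Col4a6 and Col4a5 lie 1343 bases apart. The 250 bases before each start site were searched on both strands for 4 motifs, none of which contains another: the GC box GGGCGG, the NF-Y motif CCAAT, the TATA box motif TATAAA and the AP-1 motif TGANTCA. Among all 32851 windows of the table, 32.7% held GGGCGG, 33.8% CCAAT, 12.4% TATAAA and 6.75% TGANTCA. Of 29 windows of the 32 genes, 16 held GGGCGG, 11 CCAAT, 0 TATAAA and 1 TGANTCA. Because the 5′ ends of Col4a1 and Col4a2 overlap, the window of each lies inside the transcribed region of the other, not between genes. The Col4a1 window held 1 CCAAT and the Col4a2 window held 1 CCAAT and 2 GGGCGG. Of these 4 matches, 3 are shown within a stretch of 30 bases, 5′ to 3′ on the strand of the named gene, with the match in capitals (ATTGG is CCAAT read on the other strand). A match is a description of letters, not of binding.
Col4a1, chr8:11312954-11312983, minus strand: tgcttgcccgggATTGGcgagccaaggggc
Col4a2, chr8:11312601-11312630, plus strand: gtggcgcgcccgGGGCGGcaggggaccagc
Col4a2, chr8:11312761-11312790, plus strand: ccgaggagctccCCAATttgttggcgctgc

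For the X-linked pair, the part of each window outside any annotated gene is shown, to set a pair with separate start sites beside the overlapping one. The whole window of Col4a5 held 1 CCAAT and 1 GGGCGG, and that of Col4a6 held 1 GGGCGG. Both GGGCGG matches lie outside the stretches shown, of 201 and 231 bases, so only the CCAAT of Col4a5 appears, in capitals.
Col4a5, chrX:141475169-141475369, plus strand: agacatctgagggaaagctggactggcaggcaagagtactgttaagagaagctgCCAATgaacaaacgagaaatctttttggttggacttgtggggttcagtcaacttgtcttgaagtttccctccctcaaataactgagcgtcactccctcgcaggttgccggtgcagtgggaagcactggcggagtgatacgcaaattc
Col4a6, chrX:141474096-141474326, minus strand: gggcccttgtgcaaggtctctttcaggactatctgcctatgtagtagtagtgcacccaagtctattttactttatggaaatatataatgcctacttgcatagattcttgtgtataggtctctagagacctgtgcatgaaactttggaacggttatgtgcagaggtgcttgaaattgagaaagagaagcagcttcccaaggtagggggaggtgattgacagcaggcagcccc

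Most laminin chains were nearly level between the arrays, and Lama1 alone passed 1.5-fold. Of 10 chains, 1 was higher (10%, beside 10.2% of all genes) and 0 were lower (beside 8.35%). Within 0.15 of 0 lay 6 chains, and the median was 0.07. Over all genes, the median absolute difference was 0.27. Lama1, the alpha chain of embryonic basement membranes, read 1199 in the C57BL6/N lung and 3784 in the transgenic lung at its only probe. That is a difference of 1.51 (2.85-fold), rank 234 from the top among 15495 genes. The other alpha chains were much closer to 0. Lama2, the alpha chain of muscle and peripheral nerve, read 5241 and 3637 at its probes against 6509 and 4269, differences of 0.16 and 0.08. Lama4, found in vessel walls and other mesenchymal basement membranes, read 2796 and 3675, a difference of 0.25. Lama5, the main alpha chain of the adult lung, read 13895 and 15208 (-0.02). Lama3, the alpha chain of epithelial anchoring laminins, gave 2658 and 2059 at a probe (-0.52) and 1478 and 1649 at the other (0.01). The Lama3 probes therefore differed from each other by more than the repeat-spot SD.

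The beta chains, like Lama5, were close to level. Lamb1 read 15672 and 18614 (0.10). Lamb2, the beta chain of synapses and of mature vessels, read 3349 and 3766 (0.02). Lamb3, the partner of Lama3 in epithelial laminin, read 7236 and 8307 (0.05). None of these 3 differences was larger than 0.10, beside a repeat-spot SD of 0.08 in bright probes. Lamc1, the gamma chain shared by most laminins, read 21425 and 22467 (-0.08), and Lamc3 read 642 and 921 (0.37). The ratio of Lama1 to Lamc1 was 3.01-fold higher in the transgenic lung.

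**Figure D3:**
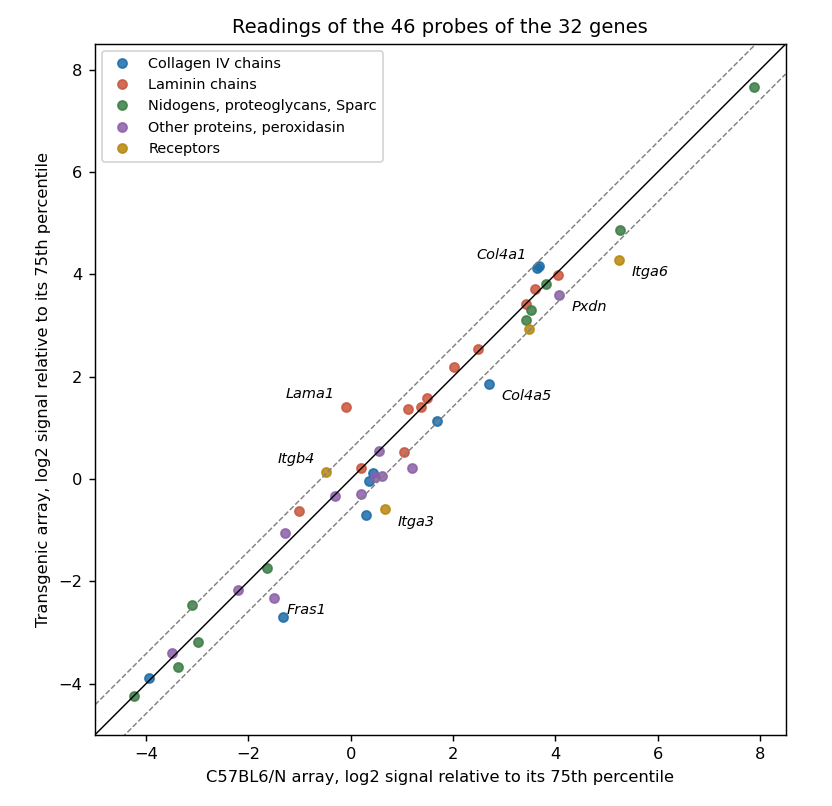
Scaled log2 signal of the 46 probes of the 32 genes of the C57BL6/N sample (x axis) and the transgenic sample (y axis), coloured by role. The solid line marks equal values and dashed lines 1.5-fold. Lama1 lies furthest above the line (-0.10 against 1.41), while Itga3 (0.66 against -0.60) and Itga6 (5.25 against 4.28) lie below it.

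Linker proteins and proteoglycans had a median of -0.11, and 0 of 5 passed 1.5-fold, beside 18.5% of all genes. Nid1, which joins laminin to collagen IV, was measured by 3 probes that read 13882, 163 and 124 in the C57BL6/N lung and 12240, 157 and 112 in the transgenic lung. All 3 were slightly lower, from -0.33 to -0.20. Nid2 read 412 and 425 (-0.10). Agrn (agrin), a heparan sulphate proteoglycan that binds dystroglycan, read 49175 and 41607 at its bright probe (-0.39) and 68.4 and 75.2 at its dim probe (-0.01). Sparc, a collagen-binding glycoprotein that also acts as a chaperone for collagen IV, read 301625 and 287984 at the brighter probe (-0.22) and 18091 and 19952 at the other (-0.01). Hspg2 encodes perlecan, the main heparan sulphate proteoglycan of basement membranes. Its probes disagreed, at 14748 and 14015 (-0.22) for the bright one and 149 and 259 (0.65) for the dim one, so its mean of 0.21 has no settled direction.

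Among 7 further proteins, 2 were lower (28.6%, beside 8.35% of all genes) and 0 higher (beside 10.2%), with a median of -0.43. Pxdn (peroxidasin), the enzyme that crosslinks collagen IV through sulfilimine bonds, read 21593 and 17345 at a bright probe (-0.46) and 2965 and 1646 at a second probe. Both probes were lower, with a mean of -0.73, and the brighter one alone did not reach 1.5-fold. Npnt (nephronectin), a ligand of the Itga8 integrin, read 1955 and 1488 (-0.54) and 1477 and 1157 (-0.50), just short of the threshold at both probes. The Fraser complex, which anchors embryonic epithelium to mesenchyme, did not move as a unit. Fras1 read 457 and 284 (-0.83) and Frem1 read 1787 and 1471 (-0.43), whereas Frem2 read 115 and 134 (0.08). Tinagl1, a matricellular protein of basement membranes, read 1898 and 2097 at a probe (-0.01) and 530 and 685 at the other (0.22). Hmcn1 (hemicentin), which links adjoining basement membranes, read 1040 and 1141 (-0.02) and 278 and 318 (0.04).

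The receptors included the lowest of the 32 genes and the second highest. Itga3, which pairs with Itgb1 to bind laminins of the epithelium, read 2040 in the C57BL6/N lung and 945 in the transgenic lung. That is a difference of -1.26 (2.39-fold lower), rank 130 from the bottom among 15495 genes, and below the lowest alveolar type 1 cell marker (Cav1, -1.08). Itga6, a laminin receptor subunit of epithelium and endothelium, read 48977 and 27787, a difference of -0.97 (1.95-fold lower), inside the range of the endothelial markers (-1.10 to -0.43). The part of these cell types in the differences of Itga3 and Itga6 was not tested. Itgb4, which pairs with Itga6 alone in hemidesmosomes, read 915 and 1576, a difference of 0.64 (1.55-fold higher). With normexp background correction it was at 0.55, short of the threshold. The 2 subunits of the hemidesmosome integrin thus lay on opposite sides of 0, and the ratio of Itgb4 to Itga6 was 3.04-fold higher in the transgenic lung. Beside Itgb4, the keratins of basal cells were higher too, their part in its difference not tested, with Krt5 at 34.3 and 2219 at the probe measured on both arrays, and Krt14 at 27.2 and 358. Dag1 (dystroglycan), which binds laminin, agrin and perlecan, read 14321 and 10839 (-0.55), just short of the threshold. Each of these receptors rested on 1 probe.

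Itga3, the lowest of the 32, had 2 windows in the table (RefSeq, GRCm38.p6). The upstream one held 3 GGGCGG and none of the other motifs, and the other held 1 GGGCGG and 1 CCAAT. The part of the upstream window outside any annotated gene (120 bases) is shown, with 2 of its GGGCGG in capitals.
Itga3, chr11:95076845-95076964, minus strand: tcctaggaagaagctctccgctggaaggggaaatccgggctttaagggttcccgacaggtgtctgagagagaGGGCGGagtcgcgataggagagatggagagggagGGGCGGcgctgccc

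Other components of basement membranes went both ways. Their list and those that follow were also drawn up with earlier results of these data known, so the shares are descriptions only. Of 27 listed, 23 were measured on both arrays, and 7 were higher (30.4%, beside 10.2% of all genes) and 5 lower (21.7%, beside 8.35%), with a median of -0.12. The highest were Smoc1, a Sparc-related calcium-binding protein (1.25, at 29.8 and 78.4), Col28a1, a collagen of peripheral nerve (1.19, at 56.0 and 142), and Vwa1, a perlecan-binding protein (1.12, at 350 and 842). Col18a1, the collagen that releases endostatin, was higher at both its probes (3354 and 7195, 2745 and 5221), with a mean of 0.87. The lowest were Megf9 (-0.93), Ntn4, a laminin-related netrin that interferes with laminin assembly (-0.91, at 272 and 160), and Megf6 (-0.88). Frem3 passed the background limit in the transgenic lung only. Vwa2 was below that level on both arrays.

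Among 30 other receptors and linkers, 3 were higher (10%, beside 10.2% of all genes) and 2 lower (6.67%, beside 8.35%), with a median of 0.02. Both shares were near those of all genes. Utrn, the utrophin that ties dystroglycan to actin, was lowest (-1.29, at 1921 and 869), followed by Itga1, a collagen IV receptor subunit, which was lower at both probes (-0.90 and -1.11). Sgca, a sarcoglycan of striated muscle, was highest (1.42) but dim, at 14.1 and 46.5 and at 69.9 and 187, on the array where cardiac transcripts were higher. The part of cardiac muscle in the Sgca difference was not tested. Gpc1, a glypican, was at 0.94 and Ilk, the integrin-linked kinase, at 0.75. Itgb1, the partner of Itga3 and Itga1, was at -0.34. Of 17 measured genes that add the laminin-binding glycan to dystroglycan, 1 was higher and 1 lower, with a median of -0.02. Each is 5.88% of the 17, beside 10.2% and 8.35% of all genes. Rxylt1, the higher one, was at 0.62.

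Enzymes that process collagen and proteases were counted in the same way. Of 28 genes for folding, secretion and crosslinking of collagen, 7 were higher (25%, beside 10.2% of all genes) and 3 lower (10.7%, beside 8.35%), with a median of 0.34. Loxl1, a lysyl oxidase-like enzyme, was highest, at 4900 and 10171 and at 677 and 2033 (mean 1.17), followed by Sec13, a coat protein of secretory vesicles (1026 and 2276), and P4ha3 (0.85). Loxl2, which crosslinks collagen IV, was at 0.59. Colgalt2, a collagen galactosyltransferase (-1.15), the prolyl hydroxylase P4ha1 (-0.84) and P3h2, a prolyl 3-hydroxylase of collagen IV (-0.62), were lowest. Serpinh1, the collagen chaperone, was at -0.02. Of 25 measured proteases and inhibitors that act on basement membrane, 10 were higher (40%) and 2 lower (8%), beside the same shares of all genes, with a median of 0.43. Timp1, an inhibitor of metalloproteinases, read 3532 and 22087 (5.64-fold higher), Adamts4 53.0 and 228 (1.96) and Serpine2 796 and 2592 (1.55). Reck, a membrane-bound inhibitor (-0.87), and Adamts9 (-0.73) were the 2 lower ones. Fibroblast markers, given above, were higher in 9 of 14, and their part in these counts was not tested. Many of these enzymes serve fibrillar collagens as well.

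**Figure D4:**
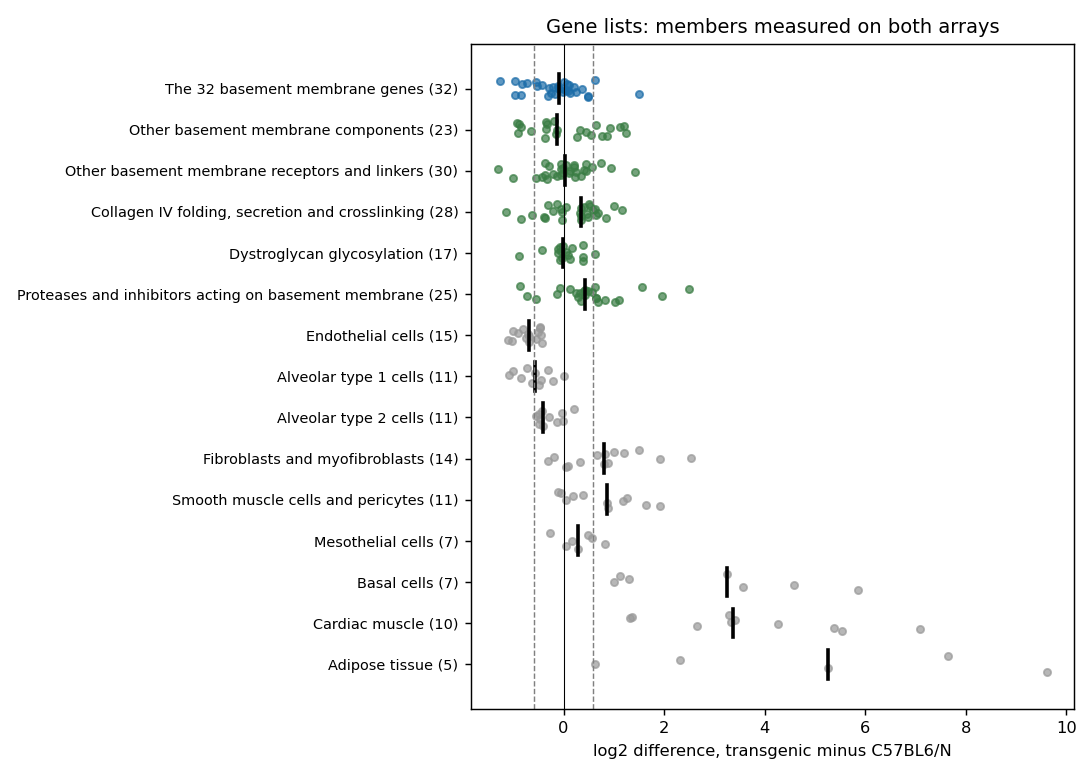
Log2 difference (transgenic minus C57BL6/N) of each gene measured on both arrays, by list, with the number of genes in brackets. Blue points are the 32 basement membrane genes, green points other genes of the pathway, grey points cell type markers, black bars medians and dashed lines 1.5-fold. The median of the 32 genes (-0.09) lies near 0, those of endothelial (-0.68) and alveolar type 1 cell markers (-0.56) lie below it, and those of basal cell (3.24), cardiac (3.37) and fat (5.27) markers lie far above.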

How the data were processed

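Whole-lung RNA was labelled with Cy3 and measured on 2 one-colour arrays, 1 per group, on the same slide and from the same scan. Per the file headers, the deposited values are background-subtracted spot intensity written by Agilent Feature Extraction 11.5.1.1, with no normalization between arrays. The series value table holds the same intensity as deposited (39012 of 39012 probes with 1 spot equal within 0.1%). Further steps of the authors are not given in the sources used here. Here, controls and spots with an outlier flag were dropped and log2 values of repeat spots averaged. The 75th percentile over 39429 probes (controls aside) was subtracted per array. Probes counted as measured when, on each array, none was saturated and 50% or more of their spots stood well above background. Genes took the mean of their measured probes. Between 69.3% and 69.5% of probes were well above background on an array, and 0 spots were saturated. The number of arrays limits the precision.

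Accessions were matched without version to RefSeq symbols of GRCm38.p6, which named 27495 of 39411 probes. The headers name mm9, so positions are given only for sequences of the RefSeq promoter table. The members and gene lists were chosen with earlier results of these data known. Named outside the 32 genes were label checks, up to 3 genes per direction past 1.5-fold of each pathway list and the first markers of each cell type list. Col18a1, Loxl2, Itgb1, Serpinh1, Cav1, Pdpn, Trp63, Frem3, Vwa2, Cyp2f2, Rgs5, Cspg4, Notch3, Higd1b and Cox4i2 were named after their values were seen. Some genes of the lists are not reported here by name. Alternatives were normexp, other scalings, other filters and other probe summaries. Steps were tested on simulated data. Python 3.11.15, numpy 2.4.6, pandas 2.3.3, matplotlib 3.10.9, R 4.3.3 and limma 3.58.1 were used.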

Additional observations from a re-analysis of the deposited data

How the results depend on the processing

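Under the 11 alternatives, none of the 8 called genes of the 32 changed sign, and 343 of 352 values of single genes moved by less than the repeat-spot SD. Many of these values could not move. All 46 probes passed each filter, so other filters and kept outlier spots repeated the main values, and the series value table holds the same intensity. Genes with 1 probe could not move with another probe summary, so this count overstates how stable the values are. With normexp (offset 50, 7 spots left out), 1 of the 32 was higher in place of 2, because Itgb4 was at 0.55, and 3 other basement membrane components were lower in place of 5. With the brightest probe per gene, 4 of the 32 were lower in place of 6, because Col4a4 was at -0.56 and Pxdn at -0.46, and Hspg2 turned to -0.22 and Tinagl1 to -0.01. Lama5 turned to between 0.01 and 0.03 under the median, cyclic loess, normexp and well-above-background scalings, where it stayed near 0, and Hmcn1 also changed sign near 0. Over all genes, normexp gave 980 higher and 682 lower, no filter on dim probes 2525 and 2088, and cyclic loess 1931 and 971, against 1580 and 1294. No paired analysis was possible because each group had 1 array, and no replicate could be left out. Genes with 1 probe, 20 of the 32, have no second reading, and every difference could lie within the variation between mice.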

Other observations

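Basement membranes also surround cell types that the comparisons above touch only in passing. Mesothelial cells line the lung surface on such a membrane. Of their 7 measured markers, 1 was higher (14.3%, beside 10.2% of all genes) and 0 lower (beside 8.35%), with a median of 0.28. Wt1, a transcription factor of mesothelium, was the higher one, at 0.83, while Msln was at 0.28 and Upk3b at 0.04. Smooth muscle cells and pericytes, which sit within the membrane of the vessel wall, were pooled in a single list. It had 6 of 11 markers higher (54.5%) and 0 lower, with a median of 0.87, led by Cnn1 (1.91, at 4583 and 19107). Of its pericyte genes, Rgs5 was higher (1.27), whereas Cspg4 (0.39), Notch3 (0.18), Higd1b (-0.04) and Cox4i2 (-0.11) lay within 1.5-fold. Schwann cells, which are wrapped in a membrane rich in Lama2, had 1 of 4 measured markers higher (25%) and 0 lower (median 0.45). A further 3 listed markers were below background on both arrays.

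Epithelial lists differed in direction. The counts stand beside shares of 10.2% higher and 8.35% lower among all genes. Of 11 alveolar type 2 cell markers, 0 passed 1.5-fold, and their median was -0.40. Club and goblet cell markers, pooled in a single list, were higher in 9 of 11 and lower in 0, with a median of 5.28. The club cell genes Scgb1a1, the main club cell product, and Cyp2f2 were near level, at -0.19 and 0.02. Ciliated cell markers were higher in 4 of 7 and lower in 0 (median 0.64). Of 9 skeletal muscle markers, 4 were measured on both arrays, 3 of them higher, and 4 were below background on both.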
